A study of Homo sapiens with 8 samples.

Results

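The platelet-derived growth factors and their receptors were followed in 786O cells. This line comes from a clear cell renal carcinoma, and its loss of VHL leaves HIF2a active in normal oxygen. The family was defined by gene name as the 4 ligand genes PDGFA, PDGFB, PDGFC and PDGFD and the 2 receptor genes PDGFRA and PDGFRB. These 6 genes were among 18417 named on the arrays, and each was read by 1 probe set that names no other gene. Parental 786O cells and 786O cells labelled HIF2a null, made by CRISPR, received DMSO or 2 uM PT2399, a compound that keeps HIF2a from pairing with ARNT, for 24 h or 48 h. Each of the 8 combinations was measured on 1 array. Titles and genotype labels set the groups here, although the growth protocol speaks of null cells for all 8 samples. The labels do not say whether the null cells are 1 clone, and the parental and null experiments were done separately, which means that an effect of genotype and one of experiment cannot be told apart.

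PDGF chains pair through disulfide bonds, and the dimers bring receptor kinases together at the cell surface, which activates Ras-MAPK and PI3K signalling. PDGFA and PDGFB are secreted ready to act, whereas PDGFC and PDGFD carry a CUB domain that proteases remove, plasminogen activators among them. The alpha receptor binds the A, B and C chains and the beta receptor the B and D chains. In clear cell renal carcinoma the ligands are known as signals from tumour cells to the beta receptor on pericytes of the vessel wall, and PDGFB is known as a gene raised by VHL loss.

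Values are deposited probe set intensities and their log2 differences. EPAS1, which encodes HIF2a, read 1277 and 1010 in parental DMSO cells at 24 h and 48 h, 1519 and 1304 in parental cells with PT2399, 650 and 585 in null DMSO cells, and 682 and 722 in null cells with PT2399. Its transcript was thus lower in the null cells but still read, and the sources used here do not place the edit relative to the probes. Of the 7 measured kidney carcinoma markers, PAX8 among them, all were above the low-value limit, which is an intensity of 118 for the mean over the arrays. The null 48 h PT2399 array stood apart, with correlations of 0.777 to 0.831 with the other null arrays over 11050 genes, while those correlated at 0.940 to 0.983. Median intensities of the parental arrays lay between 112.4 and 113.5, except for 133.8 at 24 h with PT2399.

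Promoter windows of 300 bases, from 250 before to 50 after an annotated start, were found in RefSeq on GRCh38.p14 for 4 of the 6 genes. PDGFB and PDGFC were not among them. The windows below are shown because PDGFA and PDGFRA had the largest gaps between genotypes in DMSO, as the mean of both times, and because PDGFRB is the other receptor. Capitals mark ACGTG or GCGTG on either strand, the core letters that HIF dimers recognise. PDGFA and PDGFRB lie on the minus strand and PDGFRA on the plus strand, and each sequence runs 5′ to 3′ along its gene.
PDGFA window at chr7:520651-520950: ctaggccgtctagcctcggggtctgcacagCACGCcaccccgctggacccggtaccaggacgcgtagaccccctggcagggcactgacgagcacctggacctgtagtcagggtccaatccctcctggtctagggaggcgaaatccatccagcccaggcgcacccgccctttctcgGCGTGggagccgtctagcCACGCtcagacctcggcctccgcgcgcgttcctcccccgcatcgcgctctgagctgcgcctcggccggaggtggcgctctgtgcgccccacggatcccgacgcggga
PDGFA window at chr7:519797-520096: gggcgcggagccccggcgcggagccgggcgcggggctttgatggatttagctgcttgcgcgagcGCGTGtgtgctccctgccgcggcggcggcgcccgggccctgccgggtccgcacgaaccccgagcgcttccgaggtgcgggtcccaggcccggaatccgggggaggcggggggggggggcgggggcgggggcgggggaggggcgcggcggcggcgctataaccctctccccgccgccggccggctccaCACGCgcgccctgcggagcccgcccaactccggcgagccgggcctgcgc
PDGFRB window at chr5:150155796-150156095: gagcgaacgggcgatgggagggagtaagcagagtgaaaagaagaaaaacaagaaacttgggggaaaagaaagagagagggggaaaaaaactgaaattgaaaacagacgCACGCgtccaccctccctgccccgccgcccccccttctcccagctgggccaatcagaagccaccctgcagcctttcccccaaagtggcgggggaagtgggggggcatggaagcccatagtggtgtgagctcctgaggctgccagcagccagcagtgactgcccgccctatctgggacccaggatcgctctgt
PDGFRA window at chr4:54233710-54234009: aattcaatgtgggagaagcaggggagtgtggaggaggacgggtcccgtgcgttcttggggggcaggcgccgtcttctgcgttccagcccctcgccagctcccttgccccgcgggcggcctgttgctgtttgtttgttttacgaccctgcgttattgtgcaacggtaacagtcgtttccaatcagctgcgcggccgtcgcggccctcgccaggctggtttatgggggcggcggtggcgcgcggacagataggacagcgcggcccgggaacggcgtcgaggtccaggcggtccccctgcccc
The first PDGFA window held 3 matches, beginning at positions -220, -75 and -57 from the first transcribed base, which is position 0, and the second held 2. The other 2 PDGFA windows in the table, not printed, held 1 and 0, and the PDGFD window held 1. The PDGFRB window held 1, and both PDGFRA windows in the table held 0. Matches of this kind stood in 48.4% of 35116 windows of the same length, and 10.1% held 3 or more. A match is a description of the letters and not a binding site.

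The ligands PDGFA, PDGFB and PDGFC were read above the limit, and the rest of the family was not. These 3 had geometric means over the 8 arrays of 475, 250 and 367. PDGFD at 28.7, PDGFRA at 38.2 and PDGFRB at 102 lay under the limit of 118, so that 3 of the 6 genes entered the test over 11050 genes and the other 3 were tested only in a fit without the limit, over 18417 genes. Levels are not compared between genes, because each comes from its own probes.

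PDGFB, the chain that signals through both receptors, was lower with PT2399 in parental cells and higher with it in null cells, but neither difference passed the test over all genes. In parental cells it read 310 at 24 h and 368 at 48 h in DMSO, and 198 and 256 with PT2399. Both treated values lay below both DMSO values. In null cells it read 213 and 154 in DMSO, and 259 and 315 with PT2399, again without overlap but in the other direction. The share of all genes whose groups show no overlap was not counted, here or for the genes below. In order from high to low, the 8 arrays ran parental DMSO 48 h, null PT2399 48 h, parental DMSO 24 h, null PT2399 24 h, parental PT2399 48 h, null DMSO 24 h, parental PT2399 24 h and null DMSO 48 h. With 1 array per condition no spread exists to separate neighbours in this order. In bulk RNA, fewer expressing cells and less RNA per cell cannot be told apart.

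The parental PDGFB difference was -0.64 at 24 h and -0.52 at 48 h, a mean of -0.58 (SE 0.28, 2 pairs of arrays), or 1.50-fold lower. By limma on the 8 arrays its unadjusted p was 0.0797 and its adjusted p = 1.0, and 0% of the 11050 genes passed an adjusted p of 0.05, with 130 genes (1.18%) under an unadjusted p of 0.05. PDGFB was the 1 family gene above the limit that was at least 1.25-fold lower at both times, a size met by 1.90% of the 11050 genes, and 138 genes had a lower mean difference. The SE above also holds the spread of the null pairs. In a limma fit on the parental arrays alone it was 0.13, with an unadjusted p of 0.00564 and an adjusted p of 0.452. In that fit 865 of the 11050 genes were under an unadjusted p of 0.05, against 130 in the fit on all 8 arrays.

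In null cells the PDGFB difference was 0.28 at 24 h and 1.04 at 48 h, with a mean of 0.66 (SE 0.28, limma adjusted p = 0.608), and 481 of the 11050 genes (4.35%) were under an unadjusted p of 0.05 there while 0% passed. The larger value came from the array that stood apart. Without that 48 h pair the null difference was 0.28 (SE 0.19, limma adjusted p = 1.0), and without the 24 h pair it was 1.04 (SE 0.19, limma adjusted p = 0.00950), when the value rests on the array in question and 5137 genes passed. The DMSO control of the 48 h pair, at 154, had the lowest PDGFB intensity of the 8 arrays.

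The test of the difference between genotypes gave -1.24 for PDGFB, parental minus null (SE 0.39), from -0.93 at 24 h and -1.56 at 48 h. Its unadjusted p by limma was 0.0197 and its adjusted p = 0.945, and 192 of the 11050 genes (1.74%) were under an unadjusted p of 0.05. Without the null 48 h pair the difference was -0.87 (SE 0.23, limma adjusted p = 0.809), and without the null 24 h pair -1.62 (SE 0.23, limma adjusted p = 0.00946), a setting in which 3477 of the 11050 genes passed. Genes at least 1.25-fold lower on this difference at both times made up 5.46% of those tested, and genes lower in parental and higher in null cells at both times made up 6.98%.

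**Figure D1:**
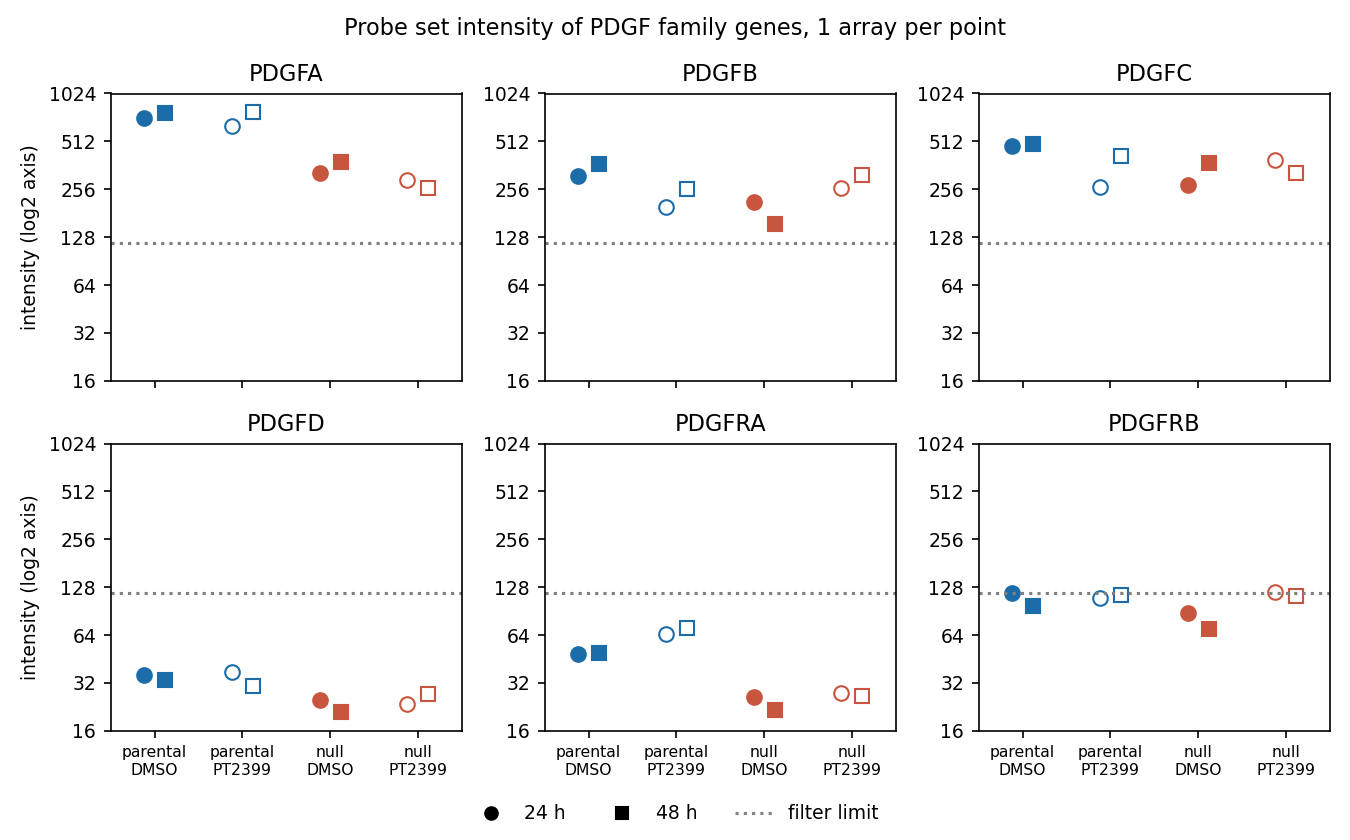
Deposited intensity (log2 axis) of the 6 PDGF family genes in parental (blue) and null (red) cells with DMSO (filled) or PT2399 (open), where circles are 24 h arrays, squares 48 h arrays and the dotted line the limit of 118. PDGFB runs from 368 in parental DMSO cells at 48 h down to 154 in null DMSO cells at 48 h, and PDGFA is lower on all 4 null arrays than on any parental array.

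PDGFC, a latent ligand of the alpha receptor, was lower with PT2399 in parental cells mainly at 24 h. It read 477 and 492 in parental DMSO cells at 24 h and 48 h, and 264 and 413 with PT2399. In null cells it read 272 and 375 in DMSO and 393 and 323 with PT2399. The parental groups did not overlap, while the null groups did. The parental difference was -0.85 at 24 h and -0.25 at 48 h, with a mean of -0.55 (SE 0.30, limma adjusted p = 1.0). With each array centred on its median the values were -1.10 and -0.24. The 24 h value comes from the PT2399 array that was less like the other parental arrays. Over the 11050 genes the SD of the parental difference was 0.39 at 24 h and 0.20 at 48 h. The null difference was 0.53 at 24 h and -0.21 at 48 h, with a mean of 0.16 (SE 0.30, limma adjusted p = 0.813). Between genotypes PDGFC differed by -1.38 at 24 h and -0.04 at 48 h (mean -0.71, SE 0.42, limma adjusted p = 0.945), so that the 2 times gave unlike values.

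PDGFA, whose chain signals through the alpha receptor, was lower in null than in parental cells whatever the treatment. It read 719 and 771 in parental DMSO cells and 643 and 785 with PT2399, so the parental groups overlapped. In null cells it read 325 and 381 in DMSO and 291 and 259 with PT2399. All 4 null values lay below all 4 parental values, and how common such a gap is among all genes was not counted. Its PT2399 difference was -0.07 in parental cells (SE 0.24, limma adjusted p = 1.0) and -0.36 in null cells (SE 0.24, limma adjusted p = 0.608). The parental value was -0.16 at 24 h and 0.03 at 48 h, and the null value -0.16 and -0.56, the latter from the array that stood apart.

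PDGFD, a latent ligand of the beta receptor, was read low throughout. It read 35.7 and 33.5 in parental DMSO cells, 37.5 and 30.5 with PT2399, 25.1 and 21.1 in null DMSO cells, and 23.5 and 27.2 in null cells with PT2399. The treated and untreated values overlapped in both genotypes. In the fit without the limit its difference was -0.03 in parental cells (SE 0.27, limma adjusted p = 1.0) and 0.13 in null cells (SE 0.27, limma adjusted p = 0.878).

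PDGFRA, the alpha receptor, had higher values with PT2399 in parental cells, at levels below the limit. It read 48.6 and 49.1 in parental DMSO cells and 64.9 and 70.6 with PT2399, without overlap. In null cells it read 26.1 and 21.7 in DMSO and 27.7 and 26.6 with PT2399. The parental difference was 0.42 at 24 h and 0.52 at 48 h, with a mean of 0.47 (SE 0.26, limma adjusted p = 1.0) in the fit without the limit. After each array was centred on its median, the 24 h value was 0.17 and the 48 h value 0.54. Among all 18417 genes, 3.24% were at least 1.25-fold higher at both times. The null difference was 0.19 (SE 0.26, limma adjusted p = 0.810), and the difference between genotypes was 0.28 (SE 0.36, limma adjusted p = 0.997), so a response particular to parental cells was not shown.

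PDGFRB, the beta receptor and a marker of pericytes, lay just under the limit. It read 118 and 97.8 in parental DMSO cells and 109 and 115 with PT2399, with overlap. In null cells it read 88.0 and 70.3 in DMSO, and 120 and 113 with PT2399, without overlap. The parental difference was 0.06 (SE 0.26, limma adjusted p = 1.0) and turned to -0.06 with centring of the arrays or quantile normalization. The null difference was 0.45 at 24 h and 0.68 at 48 h, a mean of 0.57 (SE 0.26, limma adjusted p = 0.689), and the 48 h value came from the array that stood apart. Values at least 1.25-fold higher at both times were met in 3.49% of the 18417 genes in null cells. Between genotypes it differed by -0.51 (SE 0.37, limma adjusted p = 0.997), from -0.56 at 24 h and -0.45 at 48 h. Of the 18417 genes 4.66% were at least 1.25-fold lower on this difference at both times, and 10.0% had a lower mean.

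Markers of mural cells and fibroblasts were mostly under the limit as well, with 4 of 12 above it: ACTA2, NOTCH3, MCAM and ANPEP. The summed intensity of the 12 ran from 1652 to 1759 in parental DMSO cells, 1674 to 2012 in parental cells with PT2399, 1357 to 1744 in null DMSO cells and 1548 to 1630 in null cells with PT2399. RGS5, a pericyte marker, read between 42.4 and 112, and DCN, a fibroblast proteoglycan, between 12.3 and 22.1. Of the endothelial and platelet markers 2 of 10 were above the limit, PF4 and ITGA2B, and of the leukocyte markers CD68 alone among 6. All arrays were of a cultured carcinoma cell line, so the design includes no pericytes, fibroblasts, endothelial cells, platelets or leukocytes. The marker values describe signal read in this line, and the purity of the cultures was not tested.

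**Figure D2:**
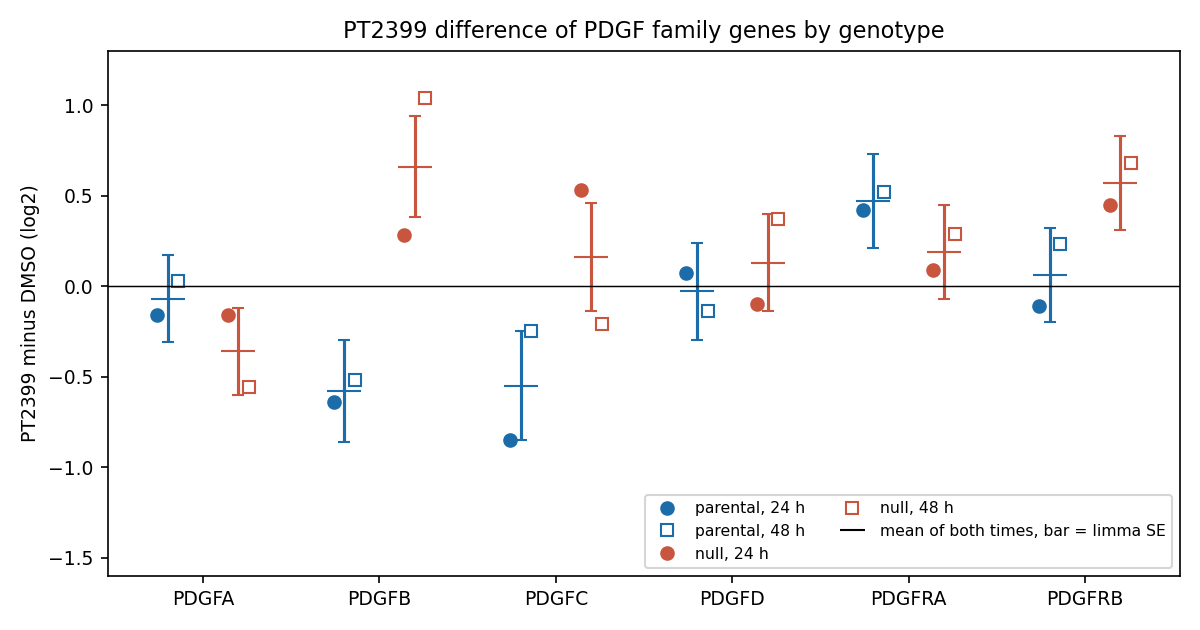
PT2399 minus DMSO on the log2 scale for each family gene in parental (blue) and null (red) cells, where circles are the 24 h pair, open squares the 48 h pair, and the dash with its bar the mean and limma SE (without the low-value limit for PDGFD, PDGFRA and PDGFRB). PDGFB is below 0 at both times in parental cells (-0.64 and -0.52) and above 0 at both times in null cells (0.28 and 1.04).

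Null and parental cells were next compared in DMSO, without a test, because each genotype was a separate experiment with 1 array per time. All 6 family genes were at least 1.25-fold lower in null cells at both times, a count that was 4 with centring of the arrays and 4 with quantile normalization, when all 6 were still lower but PDGFC and PDGFRB missed that size at 48 h. Genes of that size made up 22.5% of the 11050 above the limit and 21.1% of all 18417, and the median difference over the 11050 genes was -0.20 at 24 h and -0.13 at 48 h. PDGFA had the lowest mean of the family, 2.21-fold lower at 24 h and 2.02-fold lower at 48 h, and was the 1 member at least 2-fold lower at both times (4.68% of the 11050 genes), though its 48 h difference was -0.83 with centring and with quantile normalization, under that size. PDGFRA was 1.86-fold and 2.26-fold lower, at intensities under the limit.

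PDGFB was 1.46-fold lower in null DMSO cells at 24 h and 2.40-fold lower at 48 h, and PDGFC 1.75-fold and 1.31-fold lower. PDGFD differed by -0.51 and -0.67 on the log2 scale and PDGFRB by -0.42 and -0.48. These values share the DMSO arrays with the PT2399 comparisons, so a low null DMSO value enters both.

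**Figure D3:**
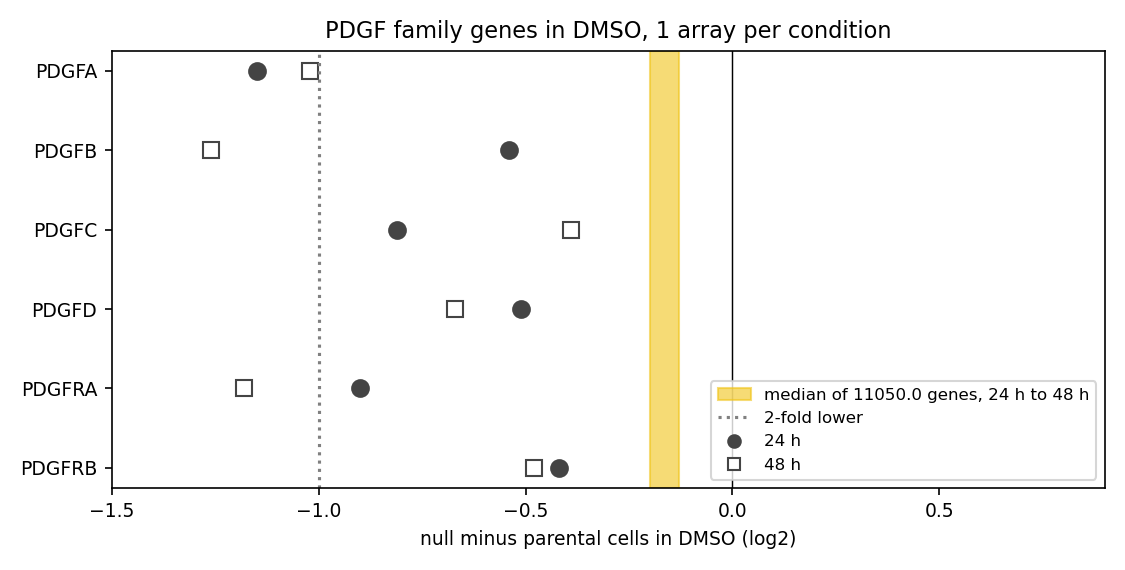
Null minus parental cells in DMSO on the log2 scale for the 6 family genes at 24 h (filled circles) and 48 h (open squares), with the median of the 11050 genes as a yellow band from -0.20 to -0.13 and the 2-fold line dotted. All 12 points lie to the left of the band, the closest being PDGFC at 48 h (-0.39).

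The members also differed in how treated parental cells stood against untreated null cells. For PDGFB the difference between them was -0.10 at 24 h and 0.74 at 48 h, and for PDGFC -0.04 and 0.14. PDGFC in treated parental cells was therefore close to its level in untreated null cells at both times, and PDGFB at 24 h. PDGFA was 0.99 and 1.04 higher in the treated parental cells, and PDGFRA 1.31 and 1.70 higher.

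The difference between 48 h and 24 h, later minus earlier, in parental DMSO cells ran from -0.27 for PDGFRB to 0.25 for PDGFB, against an SD over genes of 0.20. In null DMSO cells it ran from -0.47 for PDGFB to 0.46 for PDGFC, against an SD of 0.48. The widest shift in parental cells with PT2399 was 0.64 for PDGFC, against an SD of 0.36.

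Over the 8 arrays the Pearson correlations of log2 values between family genes were all above 0 and ran from 0.143 for PDGFC and PDGFD to 0.883 for PDGFA and PDGFRA. PDGFD correlated at 0.865 with PDGFRA and at 0.767 with PDGFA, and PDGFB at 0.640 with PDGFRB, 0.553 with PDGFC and 0.245 with PDGFA, each across the same 8 arrays, which include the gap between the genotypes. The genes most like PDGFB were DUS2, a tRNA-modifying enzyme (r = 0.968), ACD, a telomere protein (0.951), and SHANK2, a scaffold protein (0.947). Those most like PDGFC were KCNMA1, a potassium channel subunit (0.945), EXOSC2, an RNA exosome subunit (0.942), and PCID2 (0.939). KCNMA1 had parental differences of -1.04 and -0.52 and null differences of 0.45 and -0.21. Like EXOSC2 and PCID2 it had the signs of PDGFC at each time. Such likeness follows from picking these genes by their correlation over the same arrays, so it is no separate result. PDGFA was most like AADAT, an aminotransferase (0.995), SUCLG1, a citric acid cycle enzyme (0.994), and UTP11 (0.993), but 333 genes correlated with it above 0.95, against 2 for PDGFB.

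Genes that act with the PDGFs were read from 6 lists, of which 51 of 72 genes were above the limit. With PT2399 in parental cells 12 of the 51 were lower and 23 higher at both times, with a median of 0.05 against 0.02 over all 11050 genes, where 27.1% were lower and 30.7% higher. Centring each array on its median gave 15 lower and 13 higher and a list median of -0.07. The parental counts of the single lists below were not repeated with centring, and the same shares over all genes apply to them. By limma 0 of the 51 passed an adjusted p of 0.05 in parental cells, in null cells or for the difference, and 1 had an unadjusted p under 0.05 in parental cells. At least 1.25-fold higher at both times were 4 of the 51, FYN, CBLB, EGR1 and PHLDA1, beside 2.08% of all genes tested. This count was not repeated with centring, which lowers the parental 24 h differences. EGR1 stood at 0.41 at 24 h, near the size limit of 0.32.

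The extracellular list holds proteases that ready the ligands and proteins that bind them. With PT2399 in parental cells 1 of its 6 genes above the limit was lower and 5 were higher at both times, beside 27.1% and 30.7% of all genes tested. PLAU, the urokinase known to activate PDGFD, differed by 0.17 with PT2399 in parental cells (SE 0.23). Its DMSO intensities were 329 and 416 for parental and 1022 and 1057 for null cells, so its null values were the higher ones at both times, the reverse of PDGFD. PLAT, the tissue plasminogen activator known to activate PDGFC, lay under the limit in its mean, with 85.5 and 94.2 in parental DMSO cells and 106 and 122 in null DMSO cells. SPARC, a matrix protein that binds PDGF, differed by 0.20 (SE 0.28), NRP1, a co-receptor, by 0.12 (SE 0.23), THBS1, a matrix glycoprotein, by 0.21 (SE 0.26) and LRP1, an endocytic receptor that partners PDGFRB, by 0.45 (SE 0.26). None of these passed by limma.

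Of the VEGF branch, whose ligands share the PDGF fold, 4 genes were above the limit and 2 of them, VEGFA and PGF, were lower at both times with PT2399 in parental cells. VEGFA differed by -1.65 and -1.32 with PT2399 in the parental 24 h and 48 h pairs, with intensities of 2378 and 1841 in DMSO and 756 and 735 with PT2399. Its mean of -1.49 (SE 0.34, limma adjusted p = 1.0) was beyond the -0.58 of PDGFB, and it was the 1 gene of the 51 with an unadjusted p under 0.05 in parental cells. PGF, a placental member, stood at -0.23 (SE 0.23), VEGFC at -0.21 (SE 0.26) and VEGFB at -0.08 (SE 0.25).

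Inside the cell, the relay from receptor to MAPK and PI3K had 22 genes above the limit, 5 lower and 9 higher at both times in parental cells with PT2399, with a median of 0.04. HRAS, a Ras GTPase, had the largest mean at 0.56 (SE 0.36), from 0.94 and 0.18, followed by FYN, a Src family kinase, at 0.53 (SE 0.23) and MAPK3, the kinase ERK1, at 0.30 (SE 0.23). The 0.94 of HRAS came from the 24 h PT2399 array that was less like the other parental arrays. Of 9 off-switches 1 was lower and 6 higher, with a median of 0.15, led by CBLB, a ubiquitin ligase, at 0.72 (SE 0.38), DUSP5, an ERK phosphatase, at 0.45 (SE 0.25) and NHERF1, a scaffold, at 0.26 (SE 0.24). For both lists the shares over all genes tested were 27.1% lower and 30.7% higher, and the counts were not repeated with the arrays centred. None of these members passed by limma.

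The growth factor early response list, genes that ERK signalling is known to switch on, had 3 of 10 members lower and 3 higher with PT2399 in parental cells, with a median of 0.02. PHLDA1 stood at 0.54 (SE 0.23), EGR1, an early transcription factor, at 0.45 (SE 0.23), and FOSL1, an AP-1 subunit, at -0.37 (SE 0.29). The FOSL1 mean came from -0.73 at 24 h and -0.00 at 48 h. Its 24 h value rests on the PT2399 array that was less like the other parental arrays. IER3, counted among the 3 higher, differed by only 0.00 and 0.01. Between genotypes in DMSO, compared without a test, 7 of the 10 members were higher in null cells at both times and 1, IER2, was lower, beside 21.8% and 45.8% of all genes tested, and a median of 0.95 against -0.17. Under the scaling alternatives 7 or 8 of the 10 were higher. EGR1 read 296 and 163 in parental and 1369 and 1490 in null DMSO cells, and PHLDA1 674 and 652 against 2432 and 2850. Of the 9 off-switches 7 were higher in null DMSO cells at both times (5 with centring), DUSP5 among them with 164 and 182 against 506 and 442. FOS, at 1.03 and -0.39, and FOSL1, at 0.80 and -0.13, had unlike signs at 24 h and 48 h in this DMSO comparison. The other lists did not lean toward higher values in null DMSO cells. Of the 22 relay genes 9 were lower and 8 higher at both times, with a median of -0.03. Of the 6 extracellular genes 2 were lower and 2 higher, and of the 4 VEGF branch genes 2 were lower and 0 higher.

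**Figure D4:**
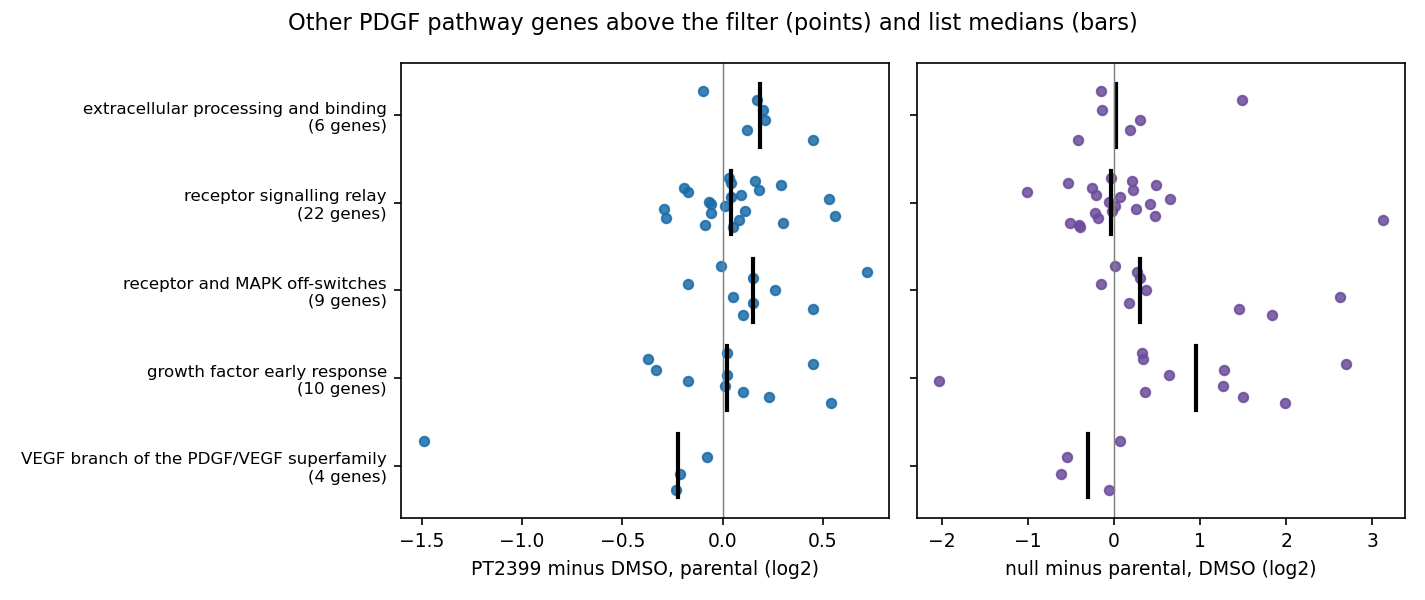
Log2 differences of the 51 other pathway genes above the limit, by list, for PT2399 minus DMSO in parental cells (left, mean of both times) and for null minus parental cells in DMSO (right, mean of both times), each point a gene and each bar a list median. On the left VEGFA stands alone at -1.49, and on the right the early response list has its median at 0.95.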

How the data were processed

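Total RNA was labelled with a whole-transcript kit, per the labels' protocols, and read on 8 arrays. The authors deposited linear intensities of 33252 probe sets, from 0.81 to 23270. Their correction, summarisation and scaling, and the genome build, are steps not given in the sources used here. Genes were named from the platform annotation and updated by Entrez identifier (19429 of 19460 single-gene probe sets matched), and the probe set with the highest mean stood for a gene. Log2 was taken first. Genes at or above percentile 40 of the mean (11050 of 18417) were tested.

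Limma 3.58.1 in R 4.3.3 fitted, for each genotype, its level, the effect of time and that of PT2399 on the 8 arrays, with Benjamini-Hochberg adjustment over all genes tested at 0.05. The 24 h and 48 h pairs serve as repeats. The spread behind a p thus starts from the gap between the PT2399 differences at 24 h and 48 h, pooled over both genotypes. Limma then draws this spread toward a value estimated from all genes in the fit. An SE or p of a gene therefore reflects the spread of the other genes as well as its own. A change of the response with time counts as part of that spread. The labels do not say whether arrays come from separate cultures, so a p measures only the spread between these arrays, which may also be technical. The number of arrays limits the precision. The procedure was tested on simulated data. A 1.25-fold change was taken as 0.32 on the log2 scale.

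The family genes and the lists were chosen with earlier results of these data known. Genes of the pathway were named as up to 3 per list with the largest parental difference of 1 direction at both times, plus PLAT, PLAU, NRP1 and SPARC, and VEGFB and VEGFC to complete their list. Of 113 genes listed, 11 had no single-gene probe set and were not used here. Alternatives covered scaling, an offset of 16, the limit, probe sets, the samples and time term of the model, and leaving out each pair.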

Additional observations from a re-analysis of the deposited data

Results flagged for a closer look

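PDGFB moved in opposite directions with PT2399 in the 2 genotypes, lower at both times in parental cells and higher at both times in null cells. The difference, parental minus null, was -1.24 on the log2 scale. Its test did not pass over all genes (limma adjusted p = 0.945, range over the alternatives 0.00946 to 1.0), and 6.98% of the genes tested moved in these directions. The null 48 h PT2399 array, which stood apart, supplies the larger null value, and without that pair the difference was -0.87.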

How the results depend on the processing

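The counts of genes past an adjusted p of 0.05 were 0 in parental cells, in null cells and for the difference between them, with 130, 481 and 192 genes under an unadjusted p of 0.05 by limma. With the arrays of 1 genotype alone limma called 4 genes in parental and 14 in null cells, none of them in the family. Leaving out a pair of arrays gave 0 to 4 genes for the parental effect, 0 to 5137 for the null effect and 0 to 3477 for the difference, the counts of 5137 and 3477 both being without the null 24 h pair, when the null effect rests on the array that stood apart. With a pair left out, the lone pair is assumed to vary like the pairs of the other genotype. In DMSO 517 genes were at both times 2-fold lower in the null cells, and 850 without the limit, where more genes are counted.

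The parental PDGFB difference ran from -0.70 to -0.52 over 11 alternatives (limma adjusted p 0.452 to 1.0). Most of these could not turn its sign. The limit, the probe sets, the samples and time term of the model, and leaving out null pairs all return -0.58 by construction. Leaving out a parental pair returns the value of the other pair. With centring it was -0.70 and with quantile normalization -0.63. The PDGFB difference between genotypes ran from -1.62 to -0.87 with a pair left out, and passed without the null 24 h pair. Signs turned for PDGFA in parental cells (-0.16 to 0.03 with a pair left out), PDGFC in null cells (-0.21 without the null 24 h pair, up to 0.53 without the 48 h pair) and PDGFRB in parental cells (-0.06 with centring or quantile normalization, tried without the limit after the data had been seen). The cause was not tested. All 6 family genes stayed lower in null DMSO cells with centring and with quantile normalization. The offset and the mean over probe sets could not change this direction. An offset keeps the order of the arrays, and the family genes have no further single-gene probe set. Centring moved the median of all genes tested from 0.02 to -0.09 in parental cells, and quantile normalization from -0.17 to -0.06 for null against parental cells in DMSO. Low signal limits PDGFD and PDGFRA most, whose DMSO differences between genotypes were -0.37 and -0.70 with 16 added. The DMSO and PT2399 arrays of a genotype are already paired by time in the model, and a pairing by replicate number could not be tried, since the labels give none.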

Other observations

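Among the other pathway genes 3 were picked out after their values had been seen. They were chosen for a large gap in DMSO with the null values higher. MAP2K2, the ERK kinase MEK2, read 246 and 299 in parental and 2328 and 2392 in null DMSO cells, and 284 and 287 with PT2399 in parental cells. SPRY2, a feedback inhibitor of receptor kinases, read 82.5 and 91.1 against 590 and 480, and DUSP6, an ERK phosphatase, 70.9 and 57.8 against 208 and 250. IER2 of the early response list went the other way, with 661 and 629 in parental and 155 and 161 in null DMSO cells. The 3 receptor kinases closest to the PDGF receptors, KIT, CSF1R and FLT3, all lay under the low-value limit. A probe set annotated to both EBF1 and PDGFRB, left out above, read 46.4 and 50.3 in parental DMSO cells and 33.8 and 33.3 in null DMSO cells.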
